A study of Mus musculus with 4 samples.

Results

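The 10 cardiac muscle genes described here were Myh6, Myl4, Myl7, Mybpc3, Actc1, Tnnt2, Tnni3, Tnnc1, Ryr2 and Nppa, chosen by symbol among the 56748 genes of the count table because the wall of the mouse pulmonary vein holds cardiac muscle. Bulk RNA sequencing was performed on lungs of young female BALB/cJ mice carrying metastases of 4T1, a mouse triple-negative breast cancer (TNBC) line injected into the tail vein. The saline group (2 libraries; the treatment label reads PBS control) was compared with the cmLumiOpto/PARPi group (2 libraries) after 3 weeks. Mice of both groups carried 4T1 tumours, and no library of cmLumiOpto alone or PARPi alone was analysed here. cmLumiOpto is an AAV carried in exosomes tagged with a CD276 antibody. Under the cfos promoter it encodes a luciferase, whose substrate ViviRen was given with it, and a light-gated channel of the inner mitochondrial membrane. The PARPi was olaparib. The study describes the samples as lung tissue with metastases and the labels as tumour cells harvested from lungs, so the share of lung in each library is not known from either.

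In cardiac muscle, myosin of the thick filament pulls on actin of the thin filament, and the troponin complex on the thin filament lets this happen when calcium is released into the cell through the ryanodine receptor. In the mouse, muscle of this kind runs from the left atrium along the pulmonary veins into the lung, and it uses the atrial myosin light chains. The atria also make natriuretic peptide hormones. Several of the 10 genes are not particular to the heart: Tnnc1 is also the troponin C of slow skeletal muscle, and Actc1 and Myl4 are expressed in developing skeletal muscle.

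Counts of these genes were few, apart from Tnnt2. Libraries held between 15263375 and 16755228 counts, and 3 counts, taken as the smallest detected level, equalled between 0.173 and 0.204 CPM (read counts divided by library size after TMM scaling); all intervals and this floor cover counting error only. At least 3 counts were found for 8 and 7 of the 10 genes in saline and for 8 and 9 in cmLumiOpto/PARPi. edgeR's quasi-likelihood test was run on 15167 genes that passed the filter on low counts, of which 5 were members: Myh6, Myl4, Actc1, Tnnt2 and Tnnc1. The other 5, Myl7, Mybpc3, Tnni3, Ryr2 and Nppa, were too low to be tested and are given by their counts. A test of the members that passed is partly fixed by this filter, since a gene high in 1 group alone can pass it.

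The markers of atrial muscle were uneven in these libraries. Nppa, which encodes atrial natriuretic peptide, had 0 counts in 3 libraries and 2 in the second cmLumiOpto/PARPi library. Nkx2-5, a transcription factor that marks cardiac muscle, had the same counts as Nppa. Myl7 was at 0 in 2 libraries. Sln, the atrial inhibitor of the calcium pump, had counts of 1, 0, 0 and 7 (saline 1 and 2, then cmLumiOpto/PARPi 1 and 2; this order is kept throughout). Bmp10, a growth factor of the atria, had 5 counts in the first cmLumiOpto/PARPi library and 0 elsewhere, and Kcnj3, a potassium channel of the atria, was at 0 in all 4. Other genes of atrial muscle were found in every library: Myl4 (32, 28, 46 and 70 counts), Nppb (15, 9, 18 and 10), the potassium channel Kcna5 (11, 14, 9 and 17) and Gja5 (111, 46, 367 and 105), which arterial endothelium also expresses. The genes are therefore called cardiac muscle genes here, with no cell of origin.

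Promoters are shown for Tnnt2, which held most of the counts, for Actc1 and Tnnc1, which had the smallest p-values of the tested members, and for Myl7, which was present in only 2 libraries. Each is the RefSeq window of 250 bases before to 50 after the gene's RefSeq start, in GRCm38.p6, printed 5′ to 3′ on the gene's strand. RefSeq starts are not always those of GENCODE, whose gene positions are given below. The windows of Actc1 and of Myh6, the latter not printed, lie inside the GENCODE spans of these genes. Capitals mark matches on either strand to motifs known for cardiac genes. The GATA factor motifs searched were AGATAA and 1 variant, TGATAA. For TEAD factors the letters were CATTCC, and for the TATA box TATAAA. The CArG box of SRF and the MEF2 site were searched by their usual patterns.
Tnnt2, chr1:135836084-135836383, forward strand: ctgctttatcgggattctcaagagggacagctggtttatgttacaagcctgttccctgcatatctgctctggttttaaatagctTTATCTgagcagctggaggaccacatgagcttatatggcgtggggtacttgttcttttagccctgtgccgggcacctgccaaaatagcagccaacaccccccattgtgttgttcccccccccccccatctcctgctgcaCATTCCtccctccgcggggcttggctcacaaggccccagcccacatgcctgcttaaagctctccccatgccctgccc
Actc1, chr2:114052826-114053125, reverse strand: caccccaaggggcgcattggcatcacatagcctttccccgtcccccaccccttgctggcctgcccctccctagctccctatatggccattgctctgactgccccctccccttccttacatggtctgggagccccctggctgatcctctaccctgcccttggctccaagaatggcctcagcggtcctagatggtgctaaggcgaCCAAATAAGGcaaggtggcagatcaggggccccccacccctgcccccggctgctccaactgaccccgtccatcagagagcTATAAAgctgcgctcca
Tnnc1, chr14:31208062-31208361, forward strand: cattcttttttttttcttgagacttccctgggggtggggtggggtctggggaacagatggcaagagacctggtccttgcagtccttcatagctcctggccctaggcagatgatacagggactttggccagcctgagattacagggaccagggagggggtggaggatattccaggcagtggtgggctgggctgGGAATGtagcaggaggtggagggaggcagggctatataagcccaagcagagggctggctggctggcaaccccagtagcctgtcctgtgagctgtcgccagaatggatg
Myl7, chr11:5898733-5899032, reverse strand: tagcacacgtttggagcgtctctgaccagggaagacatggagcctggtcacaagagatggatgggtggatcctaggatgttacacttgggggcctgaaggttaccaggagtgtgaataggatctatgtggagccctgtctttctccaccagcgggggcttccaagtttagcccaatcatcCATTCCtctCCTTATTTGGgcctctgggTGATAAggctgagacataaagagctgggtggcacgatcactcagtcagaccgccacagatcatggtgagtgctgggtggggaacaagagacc
All 10 genes were matched, with 11 windows because RefSeq gives Tnnt2 a pair of starts. The CArG box was in 2 of the 11, those of Actc1 and Myl7, where it began 47 and 61 bases before the start, against 1.63% of all 32851 promoters in the table. TGATAA was in the windows of Mybpc3, Myl7 and Nppa (3 of 11; 9.05% of all promoters), and in Myl7 it lay 3′ of the CArG box without overlapping it. CATTCC was in 4 of 11 (Myh6, Myl7, Tnnc1 and Tnnt2; 14.7% of all), AGATAA in 1 (Tnnt2; 11.2%) and the MEF2 site in 1 (Mybpc3; 0.557%). TATAAA was found in 3 (Actc1, Myh6 and Nppa; 13.6% of all), and in Actc1 and Myh6 it began after the RefSeq start base. CANNTG, the E-box, is left in lower case since 72.3% of all promoters held it, as did 10 of the 11. These are matches of letters, and no binding was measured.

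Tnnt2, cardiac troponin T, which ties the troponin complex to tropomyosin, stood apart from the other members in level. The gene lies at chr1:135836354-135852260 on the forward strand of GRCm38. It had 1539 and 1319 counts in saline, and 1035 and 2397 after cmLumiOpto/PARPi, or 96.5, 89.9, 59.6 and 144 CPM. The lowest and the highest value were thus both in treated libraries, and the groups overlapped. The means were 93.2 ± 4.69 CPM in saline and 102 ± 59.8 CPM in cmLumiOpto/PARPi (SD, n = 2 each), and the log2 fold change was 0.13 with a standard error of 0.39 (adjusted p = 0.874). Without the second cmLumiOpto/PARPi library it was -0.67 (adjusted p = 0.136), and without the first it was 0.63 (adjusted p values over all alternatives 0.136 to 0.997). The direction thus rested on single libraries.

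Tnnt2 held 93.1% (95% exact Clopper-Pearson interval 91.8 to 94.3) and 95.6% (94.4 to 96.6) of the 10 genes' counts in the saline libraries. In the cmLumiOpto/PARPi libraries it held 84.8% (82.6 to 86.7) and 90.3% (89.1 to 91.4). Troponin T works in a complex with troponin C and troponin I, yet the counts of Tnnt2 were between 33.4 and 147 times those of Tnnc1 and between 103 and 440 times those of Tnni3. Per kilobase of the table's gene length, Tnnt2 averaged 12.6 CPM over the 4 libraries and Tnnc1, the next member, 1.39 CPM. With the longest coding transcript as the length, Tnnt2 averaged 81.3 CPM per kilobase and Myl4, then the next, 2.86. The table's length for Tnnt2 is 7752 bases and its longest coding transcript 1200, and 3 of its 15 annotated transcripts retain introns. No stretch of 50 bases of its protein-coding transcripts was shared with another annotated gene. Its other transcripts were not searched.

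The level of Tnnt2 was set beside the marker lists of the other cells that the tissue could hold. The keratin and adhesion genes of the mammary tumour epithelial list (8 genes, 7 tested) summed to 3011, 3390, 2692 and 3850 CPM, lowest and highest in the same libraries as Tnnt2. The genes of that list did not run alike. Krt8 (1144, 1560, 998 and 1640 CPM) and Krt18 (909, 1016, 740 and 1261 CPM), named after their values were seen, hold most of the sum and had their lowest and highest values in the same libraries as Tnnt2. The adhesion genes Cdh1 (267, 173, 281 and 223 CPM) and Epcam (176, 149, 181 and 161 CPM) were highest in the first treated library, where Tnnt2 was lowest. Krt14, a basal keratin, had 54.1, 44.0, 42.9 and 43.6 CPM, highest in the first saline library. The part of tumour cells in the Tnnt2 counts was not tested. In bulk libraries, fewer cells of a type and less RNA per cell cannot be told apart.

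**Figure D1:**
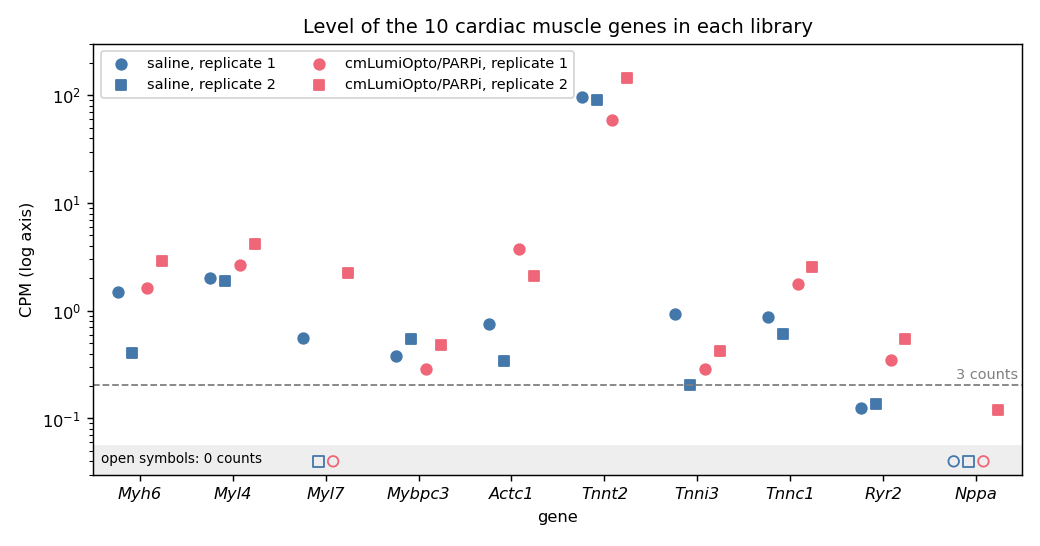
CPM of the 10 genes in each of the 4 libraries, on a log axis; circles are replicate 1 and squares replicate 2, blue for saline and red for cmLumiOpto/PARPi, with 0 counts as open symbols and the largest 3-count level (0.204 CPM) as a dashed line. Tnnt2 lies between 59.6 and 144 CPM, and every other member at or below 4.21 CPM.

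Among the thick filament genes, Myl4 and Myh6 were measured best. Myl4, the atrial essential light chain of myosin (chr11:104550663-104595753), had 32, 28, 46 and 70 counts, or 2.01, 1.91, 2.65 and 4.21 CPM. Both treated values were above both saline values, and the log2 fold change was 0.81 with a standard error of 0.43 (adjusted p = 0.333). Myh6, the fast alpha myosin heavy chain (chr14:54941921-54966927, reverse strand), had 24, 6, 28 and 48 counts, or 1.51, 0.409, 1.61 and 2.89 CPM. The first saline and the first treated library were nearly level, and the difference between groups came with a wide spread in saline (log2 fold change 1.22, standard error 0.72, adjusted p = 0.372). Leaving out 1 library at a time moved it between 0.56 and 2.42.

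Of the 50-base stretches in protein-coding Myh6 transcripts, 21.9% also occurred in another gene, among them Myh7, the slow beta heavy chain. Reads could therefore be divided between the genes. Myh6 made up 66.7% (49.0 to 81.4) and 37.5% (15.2 to 64.6) of the counts of both heavy chains in saline, and 28.6% (19.9 to 38.6) and 64.0% (52.1 to 74.8) in cmLumiOpto/PARPi. In the treated libraries, then, the first held mostly Myh7 and the second mostly Myh6, and their intervals did not overlap.

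Myl7, the atrial regulatory light chain (chr11:5896637-5898782, reverse strand), had 9, 0, 0 and 37 counts. It was thus present in 1 library of each group, at 0.564 CPM in saline and 2.23 CPM in cmLumiOpto/PARPi. A count of 0 allowed up to 0.204 CPM in the second saline library and 0.173 CPM in the first treated library. The first treated library, without a Myl7 count, had 46 counts of Myl4, the partner light chain. Mybpc3, cardiac myosin-binding protein C (chr2:91118144-91136516), had 6, 8, 5 and 8 counts, and its groups overlapped.

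Among the thin filament genes, Actc1 had the largest fold change and the smallest p-value of the 5 tested members. Actc1, alpha cardiac actin (chr2:114047282-114053548, reverse strand), had 12 and 5 counts in saline and 65 and 35 in cmLumiOpto/PARPi, or 0.753, 0.341, 3.74 and 2.11 CPM. The groups did not overlap. The means were 0.547 ± 0.291 and 2.92 ± 1.16 CPM (SD, n = 2 each) and the log2 fold change was 2.39 with a standard error of 0.62 (unadjusted p = 0.0088, adjusted p = 0.145). It did not pass the threshold of 0.05. Without the filter on low counts its adjusted p was 0.00403, and over all alternatives it ranged from 0.00403 to 0.458 with a log2 fold change of 1.92 to 3.06. No 50-base stretch of protein-coding Actc1 transcripts was shared with another gene, the other actins included.

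Tnnc1, the calcium-binding troponin C (chr14:31208312-31211729), had 14, 9, 31 and 42 counts, or 0.878, 0.613, 1.78 and 2.53 CPM. Both treated libraries were higher than both saline libraries (log2 fold change 1.52, standard error 0.52, unadjusted p = 0.0272, adjusted p = 0.193). The locus overlaps Nisch, which had between 3191 and 4580 counts, and no source used here states whether the counting used strand. No 50-base stretch of protein-coding Tnnc1 transcripts was shared with any annotated Nisch transcript. The other Tnnc1 transcripts were not searched. Tnni3, the inhibitory subunit troponin I (chr7:4518305-4524229, reverse strand), had 15, 3, 5 and 7 counts with overlapping groups. It overlaps Dnaaf3, a gene of cilium assembly with 14, 9, 52 and 17 counts. Of the 50-base stretches in protein-coding Tnni3 transcripts, 2.76% were shared with Dnaaf3.

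Ryr2, the calcium release channel of cardiac muscle (chr13:11553102-12106945, reverse strand), had 2, 2, 6 and 9 counts, of which the saline values were under the floor. The groups did not overlap, at 0.125 and 0.136 CPM against 0.345 and 0.542 CPM. This is the longest member, and per kilobase of table length its mean level was 0.00997 CPM. Nppa (chr4:148000722-148002079) was under the floor in all 4 libraries. A share of 53.4% of its 50-base stretches was also in Gm13054, an overlapping gene that was at 0 throughout.

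For 4 of the 5 tested members (Myh6, Myl4, Actc1 and Tnnc1) the lowest treated value exceeded the highest saline value, as it did for 27.4% of all tested genes. None of the 5 was separated in the lower direction, as 27.8% of all tested genes were. The median log2 fold change of the 5 was 1.22, against 0.02 for all tested genes. At an unadjusted p under 0.05, 2 of the 5 were higher (Actc1 and Tnnc1), against 9.21% of all tested genes, and none was lower, against 12.0%. These figures for the 5 are partly fixed by the filter on low counts. Myh6, Actc1 and Tnnc1 reached 10 counts in both treated libraries but not in both saline libraries. They include both genes with an unadjusted p under 0.05 and, in Myh6, the gene whose value is the median. The comparison with all tested genes is therefore no test of a shared direction. After adjustment, 0 of the 5 passed in edgeR, which called 0.00% of genes. In DESeq2 0 of 4 passed, where it called 7.32% of genes, and it gave Tnnc1 no adjusted p. Actc1 alone passed in edgeR without the filter on low counts (7.86% of genes called), with a replicate block (12.0%) and with that block and a correction for gene length (8.14%). The smallest adjusted p of any gene in edgeR was 0.138, and with 2 libraries against 2 an exact two-sided permutation test of a single gene cannot go below p = 0.333. Of the members under the filter, Ryr2 was higher in both treated libraries, with both saline values under the floor of 3 counts (adjusted p = 0.613 in edgeR without the filter). Myl7 and Nppa had higher treated means through the second treated library alone. Mean CPM was lower after treatment for Mybpc3 (0.461 in saline and 0.385 in cmLumiOpto/PARPi) and Tnni3 (0.573 and 0.355). The fit without the filter tested all 10 members, and none of these 5 passed in it.

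**Figure D2:**
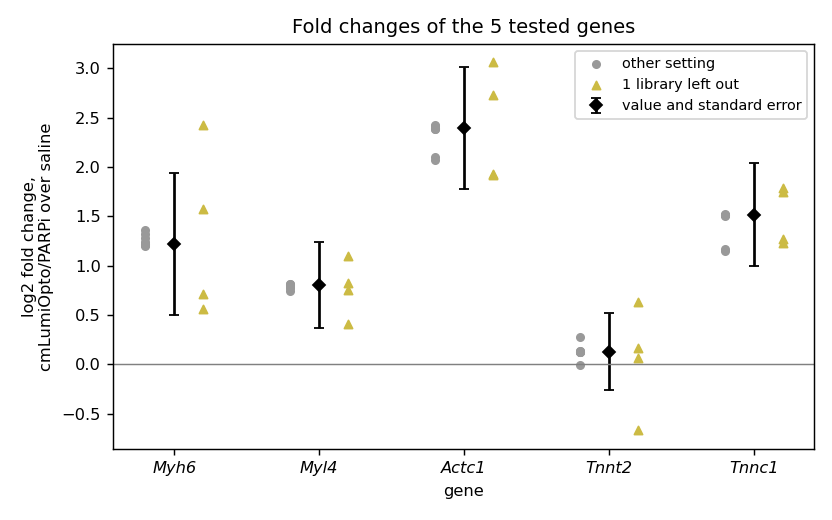
Log2 fold change of cmLumiOpto/PARPi over saline for the 5 tested genes: black diamonds with standard errors, grey circles for other normalizations, filters and models, and yellow triangles with 1 library left out. Actc1 (2.39), Tnnc1 (1.52), Myh6 (1.22) and Myl4 (0.81) are above 0 at every point, while Tnnt2 (0.13) has points on both sides, from -0.67 to 0.63.

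Without Tnnt2, the other 9 members together had 114 and 61 counts in saline and 186 and 258 in cmLumiOpto/PARPi. On the CPM scale these sums were 7.15, 4.16, 10.7 and 15.5, with means of 5.65 ± 2.12 and 13.1 ± 3.41 (SD, n = 2 each) and a ratio of 2.32. All 10 genes made up between 0.00729% and 0.0161% of the counts of a library, with both the lowest and the highest share in the treated group. This share follows Tnnt2, which held most of the 10 genes' counts, and is not a separate result.

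The makeup of the 9 genes was not the same in the treated libraries. Actc1 was 34.9% (28.1 to 42.3) of their counts in the first cmLumiOpto/PARPi library and 13.6% (9.63 to 18.4) in the second. Myl7 was 0% (up to 1.96) in the first and 14.3% (10.3 to 19.2) in the second. Tnnc1, in contrast, held 16.7% and 16.3%, and Myl4 24.7% and 27.1%. Mybpc3 held 2.69% and 3.10%, and Tnni3 2.69% and 2.71%. The second treated library, with the Myl7 counts, also held most counts of Actn2, the Z-disc alpha-actinin (2, 0, 1 and 17), Myom2, an M-band protein (3, 0, 0 and 16), Trdn, triadin of the calcium release unit (0, 0, 0 and 3), and Sln. In the first saline library, the other one with Myl7, these 4 genes had 2, 3, 0 and 1 counts. Other genes of the same lists had more counts in the first treated library than in the second. Among them were Myh7 (70 and 27), Myom1 (54 and 24), Nebl (658 and 353) and Gja5 (367 and 105). The genes set beside Myl7 here were named after their values were seen.

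**Figure D3:**
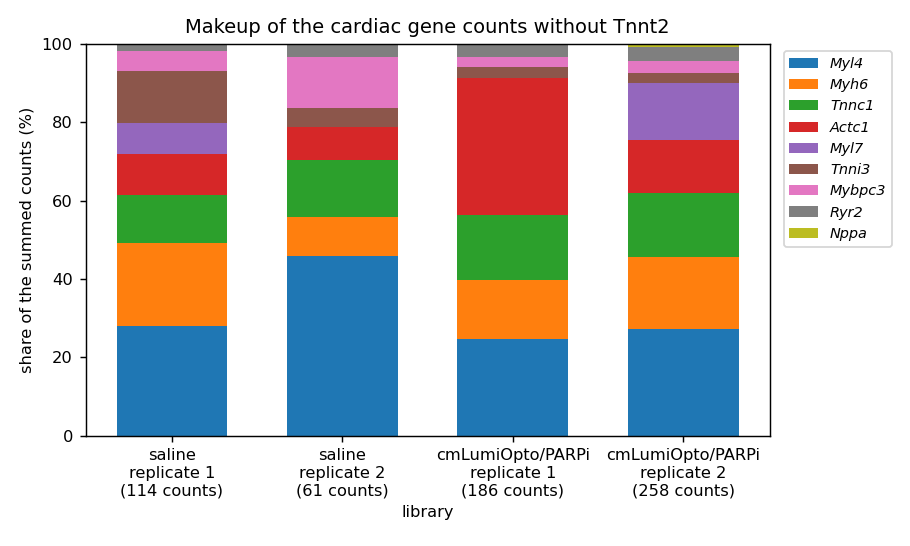
Share of each gene, in percent, in the summed counts of the 9 members without Tnnt2, as stacked bars for the 4 libraries, with the summed counts under each bar. Actc1 (red) takes 34.9% in the first cmLumiOpto/PARPi library, and Myl7 (purple) is seen in the first saline library and the second cmLumiOpto/PARPi library alone.

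Other genes of cardiac muscle (64 genes in 5 lists, 33 tested) showed no shared direction. There were 18 higher and 15 lower, with a median log2 fold change of 0.05. Of all 15167 tested genes, 7881 were higher and 7286 lower, which is the background for each list below. At an unadjusted p under 0.05, 6 were higher and 3 lower, against 9.21% and 12.0% of all tested genes. In both treated libraries, 8 lay above and 7 below the saline range, fewer of the 33 than the 27.4% and 27.8% of all tested genes. None of the 33 passed after adjustment in edgeR, whereas DESeq2 called 2 of the 26 it gave an adjusted p, 1 in each direction (7.32% of all genes called). Without the filter on low counts, 6 of 62 passed in edgeR, 5 of them higher, where 7.86% of all genes passed.

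In the sarcomere and Z-disc list, 7 of 9 tested genes were higher, 3 of them at an unadjusted p under 0.05, against 9.21% of all tested genes. Myh7 had 12, 10, 70 and 27 counts (log2 fold change 1.97, adjusted p = 0.177). Myom1, which crosslinks myosin at the M-band, had 14, 9, 54 and 24 counts (1.60, adjusted p = 0.214). It reached 10 counts in both treated libraries but not in both saline libraries, so its being tested is partly fixed by the filter. Nebl, the nebulin relative of the cardiac Z-disc, had 261, 103, 658 and 353 counts (1.34, adjusted p = 0.199). The ventricular light chains Myl2, with 19, 9, 1 and 3 counts, and Myl3, with 14, 2, 6 and 0, were too low to be tested, and both were highest in the first saline library.

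The calcium handling and electrical list held 2 higher and 6 lower genes among the 8 tested. Atp2a2, the calcium pump of the sarcoplasmic reticulum, which other cells also express, had 470, 546, 329 and 357 CPM (log2 fold change -0.57, adjusted p = 0.152). Gja5, the gap junction protein connexin 40 of atrial muscle and arterial endothelium, had 6.96, 3.13, 21.1 and 6.32 CPM (1.44, adjusted p = 0.273), with overlapping groups. Kcnq1, a potassium channel, had 3.70, 3.20, 5.53 and 4.21 CPM (0.50, adjusted p = 0.452), and Cacna1c, the L-type calcium channel, 7.02, 9.54, 7.14 and 4.93 CPM (-0.45, adjusted p = 0.465).

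Of the energy supply genes, 5 of 7 tested were higher, against 7881 of all 15167 tested genes. Cox6a2, the muscle form of a cytochrome c oxidase subunit, had 13, 6, 61 and 35 counts, close to those of Actc1 in each library (log2 fold change 2.18, adjusted p = 0.149). Cryab, a small heat shock protein, had 38.3, 26.4, 63.7 and 41.0 CPM (0.69, adjusted p = 0.235). Hspb7, another of that family, was lower, at 41, 67, 18 and 30 counts (-1.32, adjusted p = 0.229), and Cox7a1 was higher, at 15, 14, 30 and 36 counts (1.03, adjusted p = 0.275).

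The transcription factor list held 3 higher and 5 lower among 8 tested genes. Mef2a had 120, 153, 91.7 and 101 CPM (log2 fold change -0.50, adjusted p = 0.184) and Tbx5, which is also expressed in lung mesenchyme, 3.70, 2.73, 8.06 and 5.23 CPM (1.05, adjusted p = 0.210). Gata4 (-0.64, adjusted p = 0.323) and Tbx3 (0.81, adjusted p = 0.397) were the others with the smallest p-values. Of the hormones, only Nppb, B-type natriuretic peptide, was tested, with 15, 9, 18 and 10 counts and a log2 fold change of 0.07 (adjusted p = 0.959).

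The other muscles were described in the same way. The 20 skeletal muscle markers summed to 16.9, 14.6, 19.9 and 19.3 CPM. Of the 8 tested, 6 were higher, 1 of them at an unadjusted p under 0.05, against 9.21% of all tested genes. This was Tnni2, fast skeletal troponin I, with 39, 37, 120 and 112 counts (log2 fold change 1.46, adjusted p = 0.138). Among those with the highest counts, Tnnt3, fast skeletal troponin T, had 73, 66, 57 and 101 counts, Myh1, a fast myosin heavy chain, 56, 38, 28 and 34, and Ryr1, the skeletal calcium release channel, 19, 22, 27 and 22. Acta1, the main skeletal actin, had 4, 0, 1 and 0 counts. Tnnc2, Mybpc1, Myh3 and Myh8 were at 0 in all libraries, and Myh4 and Pvalb had 2 counts each in the second saline library alone. The 12 smooth muscle markers summed to 427, 417, 392 and 370 CPM, lower in both treated libraries than in both saline libraries. Of the 11 tested, 7 were higher and 4 lower. Acta2 was lower (log2 fold change -0.42, adjusted p = 0.220) and Lmod1 higher (1.32, adjusted p = 0.179). The 5 ventricular markers summed to 3.32, 1.57, 5.58 and 2.35 CPM, with Irx4 at 0 in all libraries.

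The sums of the lung epithelial markers were higher in both treated libraries, as was the sum of the 9 members, but the order of the libraries was not the same. The 11 alveolar markers, led by surfactant genes such as Sftpc, summed to 1874, 527, 8669 and 3179 CPM, with 10 of 11 higher and 8 at an unadjusted p under 0.05. In both treated libraries, 9 of the 11 lay above and 1 below the saline range, against 27.4% and 27.8% of all tested genes. The lower one was Abca3 (147, 129, 125 and 94.0 CPM). The 6 airway markers, led by the club cell gene Scgb1a1, summed to 1159, 86.2, 5731 and 3004 CPM, with all 6 higher and all 6 at an unadjusted p under 0.05. Of all tested genes, 9.21% were higher at that p. Neither list held a gene that passed after adjustment in edgeR. Both sums were highest in the first treated library, then the second, then the first saline library, and lowest in the second saline library. Actc1 had this same order of libraries, as had Myh7, Myom1, Nebl, Cox6a2, Cryab and Tbx5, whereas Tnnc1, Myh6, Myl4 and the sum of the 9 members were highest in the second treated library. The genes with this order were picked out after their values were seen, and the share of all tested genes with it was not counted. Atp2a2, Hspb7 and Mef2a of the cardiac lists were lower in both treated libraries. Mybpc3 and Tnni3 were not higher in the treated group, and Myl7 was at 0 in the first treated library, where both epithelial sums were highest. The part of the lung's share of the tissue in the levels of the cardiac genes was not tested.

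Markers of the remaining cell types did not separate the groups in their sums. The 8 endothelial markers summed to 529, 425, 745 and 419 CPM and the 3 mesothelial markers to 127, 225, 203 and 212 CPM. Among endothelial genes, Cldn5 was the one with an unadjusted p under 0.05 (log2 fold change 0.90, adjusted p = 0.202).

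**Figure D4:**
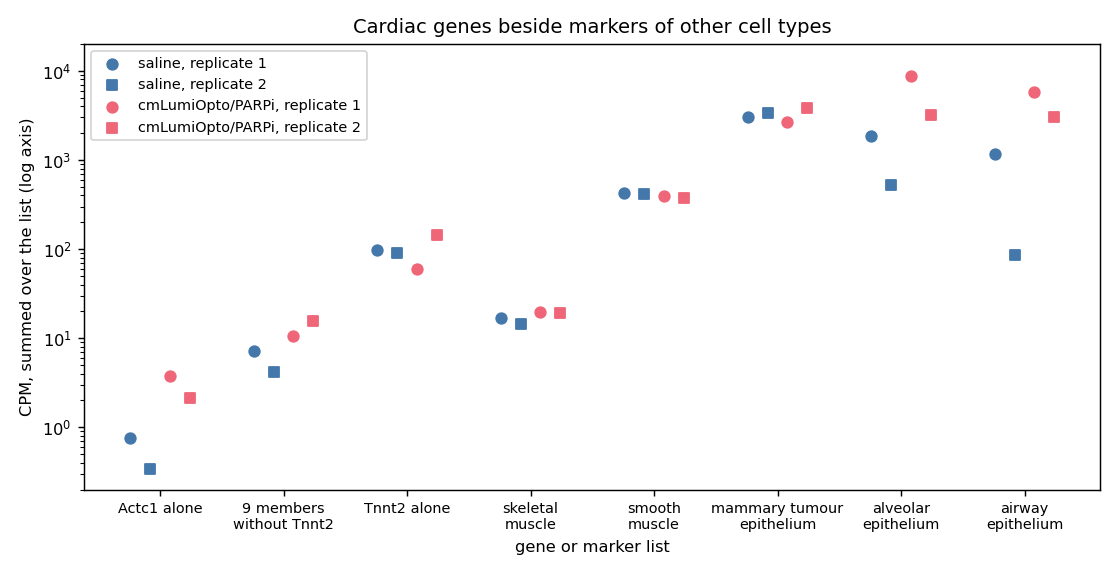
CPM of Actc1, of the 9 members without Tnnt2 and of Tnnt2, beside CPM summed over the marker lists of other cells, on a log axis; circles are replicate 1 and squares replicate 2, blue for saline and red for cmLumiOpto/PARPi. The alveolar sum runs from 527 to 8669 CPM and the airway sum from 86.2 to 5731 CPM with both treated libraries highest, while Tnnt2 and the mammary tumour epithelial sum have their lowest and highest values in the treated libraries. The genes of the mammary tumour epithelial list did not run alike, and the share of all genes with such extremes was not counted.

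Genes with profiles most like the members were sought among 14110 genes with a mean of at least 1 CPM, by the distance of centred log2 CPM over the 4 libraries from the mean of 9 members; Nppa was left out for its counts. The mean profile of the members was -0.02, -0.77, -0.06 and 0.84, lowest in the second saline library and highest in the second treated library. The 10 nearest were Rhov, Gm6552, Gm15452, Depp1, Pgf, Pi16, Cd101, Wnt5b, Gm13192 and Cfap157, at distances of 0.0914 to 0.291, and no gene of the cardiac lists was among them. That absence is partly set by the cut at 1 CPM, which left out low cardiac genes such as Actn2 and Myom2. Rhov, a small GTPase, had 1.32, 0.681, 1.32 and 2.47 CPM, and Pgf, placental growth factor, 20.9, 11.9, 16.5 and 36.8 CPM. Against the profile of Tnnt2 alone, a reference chosen after seeing the data, the 10 nearest were Plppr3, Septin5, Sh3gl3, Gm10156, Gm10499, Apln, Rbm3, Enkur, Flywch2 and Gm6485, and 0 genes were shared with the first list. Likeness over 4 libraries is a description, and says nothing of shared control.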

How the data were processed

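Bulk RNA sequencing was done on 2 saline and 2 cmLumiOpto/PARPi libraries. The authors mapped reads with HISAT2 and deposited raw counts per gene with no normalization; the counting tool and its use of strand are not given in the sources used here. Their methods name GRCm38 and the processing notes mm39. The table's positions matched GRCm38 for 0 of the 10 genes, so positions here are those of GENCODE M21 (GRCm38), matched by gene ID, and promoters those of RefSeq (GRCm38.p6). The deposited table also gives a gene length.

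Counts were tested with edgeR 4.0.16 in R 4.3.3 (TMM, filterByExpr at min.count 10, default glmQLFit, glmQLFTest) and adjusted by Benjamini-Hochberg over all 15167 tested genes, threshold 0.05. The standard error is the size of the log2 fold change over the square root of F. CPM used TMM-scaled library sizes; profiles used a prior count of 2. The steps were tested on simulated data. Totals of 15263375 to 16755228 counts set the precision. Chi-square of replicate against replicate, per degree of freedom, was 24.1 in saline and 41.1 in cmLumiOpto/PARPi, above the value of 1 of pure counting error. Each library was counted as 1 replicate. No source used here states that the libraries came from separate animals beyond their sample numbers, so p-values measure the spread between libraries.

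Alternatives were DESeq2 1.42.0, RLE scaling, scaling without muscle genes, no filter, another quasi-likelihood option, a length correction (loess, span 0.5), the replicate block and leaving out each library. The members and lists were chosen with earlier results of these data known. Named were all members, up to 4 genes of each other list with the smallest p (at least 3 counts in 1 library), up to 4 ventricular and skeletal markers with the highest counts, and the 10 nearest profiles; other genes were named after their values were seen. The values of 1 gene that the rule named are not reported here. Proteins were not compared here. Instead, 50-base stretches of the members' protein-coding transcripts were sought in the annotated transcripts of other genes.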

Additional observations from a re-analysis of the deposited data

How the results depend on the processing

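Over 12 alternatives for the 5 tested members (59 values, since DESeq2 gave Tnnc1 no adjusted p), 54 kept their direction and their side of the threshold, 3 passed it and 2 reversed. The reversed values were those of Tnnt2, -0.0020 with the replicate block and -0.67 without the second cmLumiOpto/PARPi library (range with 1 library left out -0.67 to 0.63), and those that passed were of Actc1: adjusted p = 0.0307 with the block, 0.00403 without the filter and 0.0497 with the length correction and block. Members called numbered 0 in edgeR and 1 under each of these 3 settings. Other cardiac genes called numbered 0, and 2 with DESeq2, 3 with the length correction and block, 6 without the filter and 6 with the block. All genes called numbered 0, and 981 with DESeq2, 1234 with the length correction and block, 2000 without the filter, 1822 with the block (752 higher and 1070 lower) and between 0 and 31 with 1 library left out. Libraries of the same number come from differently treated mice, and no label ties them. Their deviations from the group means correlated with Spearman's rho = 0.298 across genes, which are not independent. The pairing is therefore not established. Of the 10 nearest profiles, 7 stayed with a prior count of 0.5, 2 with Pearson correlation and 0 with Tnnt2 alone as reference. The summed level of the 9 members, its alternatives and the Tnnt2 reference were added after seeing the data. The cause of these changes was not tested. With 61 to 258 counts for 9 genes in a library, only large differences could be seen, and a lone sample left in a group is assumed to vary like the other group.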
